A study of Mus musculus with 9 samples.

Results

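The genes described here encode the vacuolar ATPase (V-ATPase), the cathepsins and the lysosomal membrane proteins LAMP1 and LAMP2. They were taken from the deposited gene table as all protein-coding genes whose symbol begins with Atp6v0, Atp6v1, Atp6ap1 or Atp6ap2, consists of Cts and 1 letter, or is Lamp1 or Lamp2. This rule used no measured value and gave 45 of the 35275 genes listed: 25 V-ATPase genes, 18 cathepsins and 2 LAMP genes. RNA was sequenced from C57Bl/6 mouse embryonic fibroblasts (MEFs), with no transgene or knockout named in the labels. The control group was kept in iso-osmolar medium (300 mOsm), the 500 mOsm group received 200 mM sucrose, and the 600 mOsm group received 300 mM sucrose, for 3 h in the study's methods. Each group had 3 libraries, 9 in all. The labels do not say that libraries of one group came from separate cultures, so p-values measure only the spread between these libraries, which may be technical. The comparisons ask how low-intensity (500 mOsm) and high-intensity (600 mOsm) hyperosmotic stress changed the RNA of these genes, and whether the intensities differed from each other.

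The V-ATPase is the proton pump that acidifies lysosomes, endosomes and the Golgi apparatus. Its V1 sector sits in the cytosol and hydrolyses ATP, its V0 sector lies in the membrane and carries the protons, and accessory proteins help its assembly and sorting. Cathepsins are the proteases that work in the acid lumen made by this pump, most of them cysteine proteases, some aspartic (cathepsin D and E) or serine (cathepsin A and G) proteases. LAMP1 and LAMP2 are heavily glycosylated proteins that line the lysosomal membrane. Many lysosomal genes carry a CLEAR element, an E-box variant bound by the MiT/TFE transcription factors, and are known to be controlled together through it.

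Total counts on genes ranged from 21716042 to 26740832 per library, and TMM scaling factors ranged from 0.974 to 1.01. A count of 3, taken as the floor of detection, corresponded to at most 0.137 CPM (counts scaled by TMM and library total) in any library and covers counting error only. The fibroblast identity was checked with 10 marker genes, all of which passed the filter on low counts. Their summed level lay between 20715 and 21850 CPM in the controls, between 20811 and 21634 CPM at 500 mOsm, and between 23489 and 25212 CPM at 600 mOsm. This sum was carried by Col1a1, Col1a2, Vim and Fn1, and its members moved in both directions: at 500 mOsm 1 was called higher and 2 lower, and at 600 mOsm 4 higher and 2 lower. The 2 lower were Col3a1, a minor collagen here (47.5, 19.7 and 30.2 CPM in the 3 groups), and Pdgfra, a growth factor receptor (37.7, 23.2 and 23.6 CPM). Summed macrophage markers (7 of 8 listed in the table) spanned 37.3 to 41.1, 31.1 to 44.1 and 36.2 to 45.3 CPM in the same order, with Tyrobp at 0 in all controls, but Cd14 was lower at 500 mOsm (23.2 to 11.7 CPM) and Csf1r higher (11.2 to 14.5 CPM), while Lyz2 averaged 4.93, 10.2 and 12.4 CPM and was not called. Trophoblast markers summed to 19.2 to 25.1, 18.9 to 23.1 and 23.1 to 27.6 CPM, nearly all from Prl2c2, while Prl3b1 and Tpbpa had no count in any library. Osteoclast markers summed to 0.450 to 0.774, 1.07 to 1.36 and 0.492 to 0.586 CPM, mainly from Mmp9. Epithelial markers summed to 0.205 to 0.490, 4.04 to 4.79 and 0.348 to 0.627 CPM, at 500 mOsm mainly from Cdh1, with Krt5 at 0 in every library. The 4 endothelial markers summed to 0.778 to 0.899, 11.9 to 13.4 and 2.13 to 3.18 CPM, at 500 mOsm mainly from Pecam1. In these bulk samples, fewer cells of a type and less RNA per cell cannot be told apart.

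Of the 45 genes, 30 passed the filter on low counts and were tested: 7 of 9 V0 genes, 9 of 13 V1 genes, 2 of 3 accessory genes, 10 of 18 cathepsins and both LAMP genes. Levels between genes were compared per length, as FPKM (counts scaled by gene length and library total). Lamp1 was the highest at 226 ± 12.8 FPKM in the controls (mean ± SD, n = 3), followed by Ctsd, the aspartic protease cathepsin D, at 169.6 ± 2.81 FPKM. Most V-ATPase genes formed a band from 13.6 FPKM for Atp6v1d to 87.7 FPKM for Atp6v1g1 (means of all 9 libraries). Neighbours within this band often overlapped: Atp6v1f at 79.2 FPKM and Atp6v0c at 78.7 FPKM, for example, differed by less than the SD of either. Atp6v1g2 and Atp6v0a4, forms of the G and a subunits better known from brain and kidney, were far below the band at 1.12 and 1.11 FPKM. Among cathepsins Ctsz, Ctsl, Ctsb and Ctsa followed Ctsd at 83.9, 69.0, 59.3 and 31.6 FPKM. Ctsc was at 2.96 FPKM, and Ctsw, Ctsg, Ctsh and Ctso were all below 1 FPKM.

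**Figure D1:**
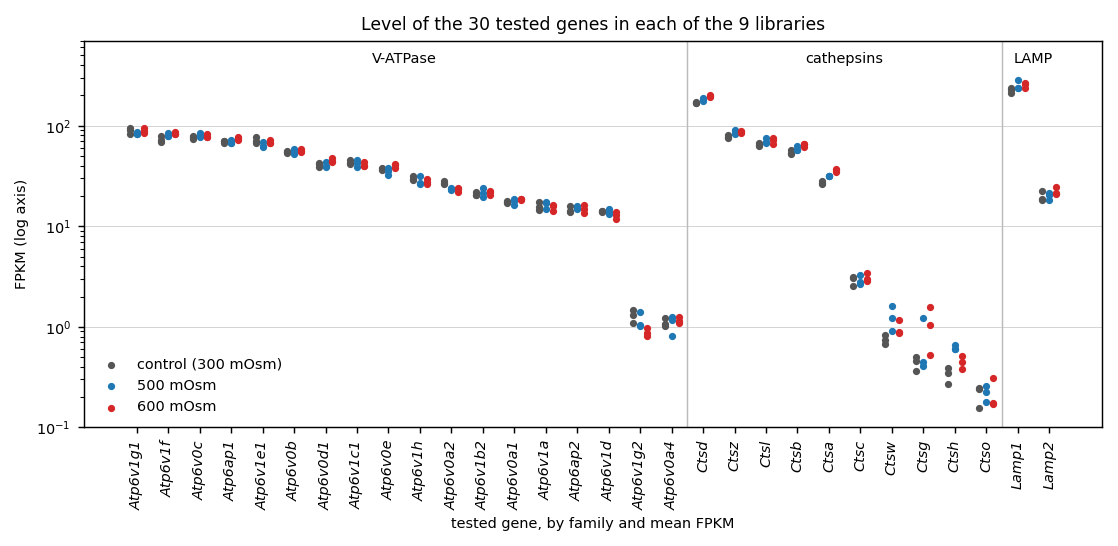
FPKM (log axis) of the 30 tested genes in each of the 9 libraries, by family and colored by group. All V-ATPase genes except Atp6v1g2 and Atp6v0a4 sit in a band between about 13.6 and 87.7 FPKM, Lamp1 and Ctsd lie above it, and the 3 groups overlap or nearly overlap for most genes on this scale.

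For subunits with several isoforms, 1 gene made up nearly all of the RNA, with the a subunit as the exception. Atp6v0d1, Atp6v0e, Atp6v1b2, Atp6v1c1 and Atp6v1e1 each gave over 99% of the summed FPKM of their subunit in every library, and Atp6v1g1 gave at least 98.4%. The a subunit, which anchors the pump in particular membranes, was shared by Atp6v0a1 (a1), Atp6v0a2 (a2) and Tcirg1 (a3, a gene whose symbol lies outside the rule). Atp6v0a2 gave 36.4 ± 1.11% of the a subunit RNA in the controls, 34.1 ± 0.924% at 500 mOsm and 31.6 ± 1.01% at 600 mOsm (mean ± SD, n = 3). Tcirg1 gave 38.9 ± 0.975%, 39.0 ± 1.66% and 41.6 ± 1.15% in the same groups, and Atp6v0a1 23.3 ± 0.477%, 25.3 ± 1.23% and 25.3 ± 0.231%. Between 600 and 500 mOsm the log2 fold change of Atp6v0a2 itself was -0.01, with Tcirg1 at 0.19 and Atp6v0a1 at 0.10.

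The changes called in these genes were small, and most of those called higher than in the controls were in cathepsins. At 500 mOsm 4 of the 30 tested genes were called higher than in the controls (13.3%, against 13.2% of the 13082 genes tested) and 1 was called lower (3.33%, against 14.8%). At 600 mOsm 7 were called higher than in the controls (23.3%, against 15.1%) and 2 lower (6.67%, against 20.0%). Between 600 and 500 mOsm 3 were called higher (10.0%, against 11.9%) and 0 lower (against 17.2%), with 1 lower at an unadjusted p under 0.05, 0 by DESeq2 and 1 by limma. A call here is an adjusted p under 0.05 in edgeR's quasi-likelihood test with Benjamini-Hochberg adjustment over all genes tested. The median log2 fold change of the 30 genes was 0.04, 0.11 and 0.03 in the 3 comparisons, beside 0.01 over all genes in each. At 500 mOsm this median was -0.01 without 500 mOsm replicate 3, 0.06 without 500 mOsm replicate 1 and 0.08 with a length correction. Between the intensities it was 0.00 without 500 mOsm replicate 1, 0.08 without 500 mOsm replicate 3, 0.02, 0.06 and 0.07 without 600 mOsm replicate 1, 2 and 3, and 0.00 with a length correction. Both treated groups were compared with the same control libraries, so their fold changes are not independent.

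Of the fold changes, 23 of 30 were above 0 at 600 mOsm against control (76.7%, beside 50.9% of all genes). At 500 mOsm against control 19 were (63.3%, beside 52.4%), and between the intensities 18 (60.0%, beside 51.0%). The counts of called genes depended on single libraries. The 4 higher genes at 500 mOsm became 2 without control replicate 1, control replicate 3, 500 mOsm replicate 2 or 600 mOsm replicate 1, and the 1 lower gene became 2 without 500 mOsm replicate 3. With a length correction the 4 became 7, and with GC content and length corrected they became 10 and the 1 lower gene 2. The 7 higher genes at 600 mOsm became 3 without control replicate 3 or 600 mOsm replicate 1, and the 2 lower became 1 without any library except control replicate 1 and 500 mOsm replicate 3. The 3 genes higher at 600 than at 500 mOsm became 1 without control replicate 2 or 3, 500 mOsm replicate 1 or 2, or 600 mOsm replicate 3, and 5 without 500 mOsm replicate 3. When a block for the replicate number was added, the 7 became 4, the 2 became 1 and the 3 became 1.

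**Figure D2:**
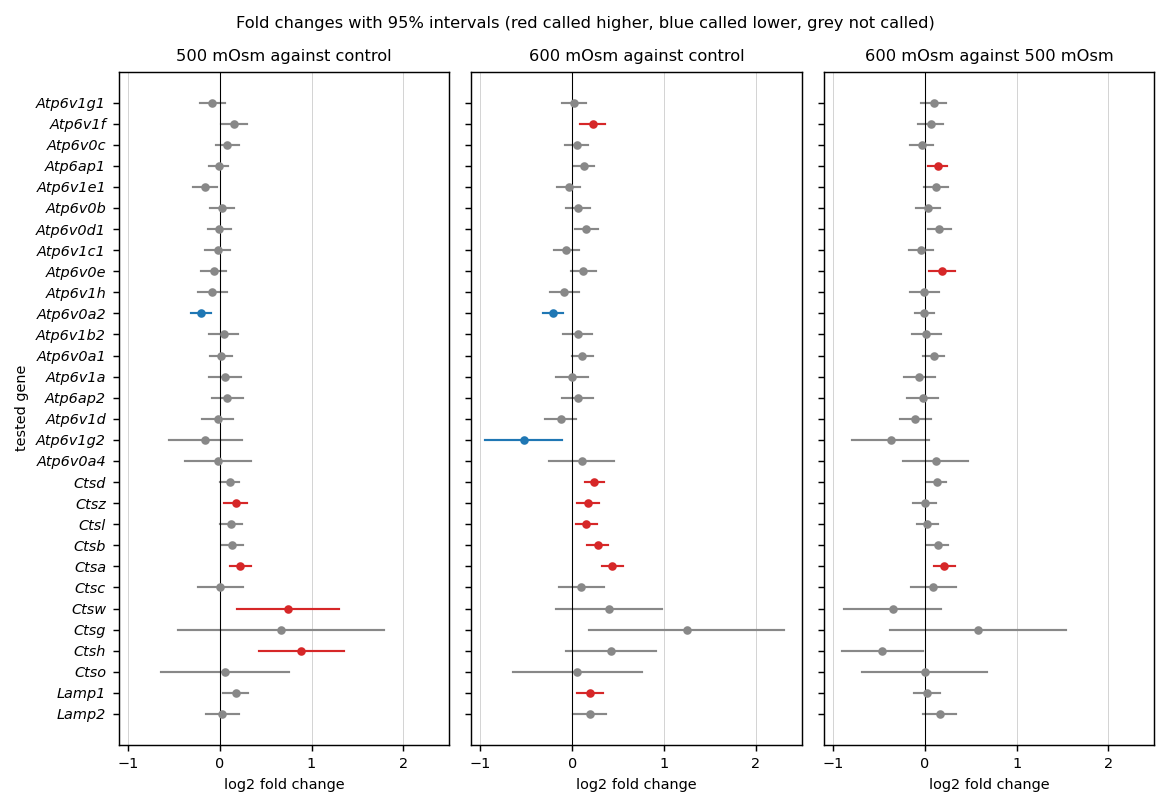
Log2 fold change (point) and 95% interval (line) of the 30 tested genes in each comparison. All 10 cathepsins lie to the right of 0 in both comparisons with control, while the V-ATPase genes lie on both sides, most within 0.2 of 0.

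Cathepsins were the family with the most calls. All 10 tested had a fold change above 0 against control at both intensities, beside 52.4% of all genes at 500 mOsm and 50.9% at 600 mOsm. At 500 mOsm 4 (40%) were called higher and at 600 mOsm 5 (50%), beside 13.2% and 15.1% of all genes. In edgeR's test 0 were called lower in any comparison; at an unadjusted p under 0.05, and by limma, 1 was lower between the intensities and 0 in the comparisons with control, and by DESeq2 0 in all of them. Their median log2 fold change was 0.16 at 500 mOsm and 0.26 at 600 mOsm. Of the 6 well-counted cathepsins (mean log2 CPM of 3 or more), 2 (33.3%) were called higher at 500 mOsm and 5 (83.3%) at 600 mOsm, beside 10.4% and 17.6% of all genes at that level. Leaving out single libraries gave 2 to 4 higher cathepsins at 500 mOsm and 3 to 6 at 600 mOsm. Summed over all 18 genes, the cathepsins came to 398 ± 5.98 FPKM in the controls, 438 ± 12.1 FPKM at 500 mOsm and 462 ± 9.04 FPKM at 600 mOsm (mean ± SD, n = 3), with no overlap between any of the groups. The summed fibroblast markers given above were also higher at 600 mOsm, with 4 of the 10 called higher and 2 lower, and their part in this result was not tested.

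Ctsa (ENSMUSG00000017760, chr2:164832873-164841032, mm10) encodes cathepsin A, the serine carboxypeptidase that also protects lysosomal galactosidase and neuraminidase. Its control libraries read 96.1, 104 and 96.9 CPM, those at 500 mOsm 115, 117 and 116 CPM, and those at 600 mOsm 134, 127 and 141 CPM. The 3 groups did not overlap and stood in the order of the osmolarity. Ctsa rose by a log2 fold change of 0.22 ± 0.05 (SE) at 500 mOsm (edgeR, adjusted p = 0.00610) and of 0.44 ± 0.05 at 600 mOsm (adjusted p = 4.46e-05), or 1.17-fold and 1.35-fold. The step from 500 to 600 mOsm was itself called, at 0.21 ± 0.05 (adjusted p = 0.00834). Each of these 3 calls was kept in all 22 alternative analyses, with any library left out among them. Exons of Ctsa share 495 bases with Pltp and 324 bases with Neurl2 on the other strand, and the strand setting of the counting is not known here, so reads there cannot be told apart. Pltp, with 3218 counts in all beside 25668 for Ctsa, was also higher at 500 mOsm (0.38 ± 0.10) and at 600 mOsm (0.43 ± 0.10). The difference of Pltp between the intensities was 0.05 ± 0.10, and its part in the Ctsa values was not tested.

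Ctsd (ENSMUSG00000007891, chr7:142371148-142388038) and Ctsb (ENSMUSG00000021939, chr14:63122462-63145919) encode cathepsin D and the cysteine protease cathepsin B, the main endopeptidases of many lysosomes. Ctsd was at 353, 370.5 and 353 CPM in the controls, at 371, 394 and 398 CPM at 500 mOsm and at 438, 405 and 429.7 CPM at 600 mOsm. Ctsb was at 266, 255 and 243 CPM, at 269, 274 and 297 CPM and at 316, 312 and 298 CPM in the same groups. In both genes the groups were ordered by osmolarity without overlap, although the highest control and the lowest 500 mOsm library of each lay close together. For Ctsb the highest 500 and the lowest 600 mOsm library, at 297 and 298 CPM, were also close. Both rose at 600 mOsm, Ctsd by 0.24 ± 0.05 (adjusted p = 0.00182) and Ctsb by 0.28 ± 0.05 (adjusted p = 0.00135), or 1.18-fold and 1.21-fold, and each call was kept in all 22 alternatives, with Ctsb at 0.46 once GC content and length were corrected. At 500 mOsm neither was called, with log2 fold changes of 0.11 for Ctsd (95% interval 0.01 to 0.21) and 0.14 for Ctsb (0.03 to 0.25). Between 600 and 500 mOsm the fold changes were 0.13 (0.03 to 0.23) and 0.14 (0.03 to 0.25), and neither was called. Exons of Ctsb share 774 bases with Fdft1 on the other strand, a gene with 21317 counts beside 61855 for Ctsb. Fdft1 was lower at 500 mOsm by 0.55 ± 0.08 and at 600 mOsm by 0.39 ± 0.08, and its part in the Ctsb values was not tested. Exons of Ctsd share 808 bases with Gm49369 on the same strand, a gene not analysed here.

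Ctsl (ENSMUSG00000021477, chr13:64363214-64370306) encodes cathepsin L, another broad endopeptidase, and Ctsz (ENSMUSG00000016256, chr2:174427493-174439039) the carboxypeptidase cathepsin Z. Ctsl read 130.1, 126 and 127 CPM in the controls, 134, 136 and 146 CPM at 500 mOsm and 142, 149 and 134 CPM at 600 mOsm. Ctsz read 109, 118 and 108 CPM, then 127, 131 and 118 CPM, then 128, 121 and 128 CPM. The treated groups overlapped each other in both genes, and each lay above the controls, though 500 mOsm replicate 3 only just passed control replicate 2 for Ctsz. Ctsl was called at 600 mOsm, at 0.15 ± 0.05 (adjusted p = 0.0432), and had 0.12 (0.01 to 0.24) at 500 mOsm. Ctsz was called at both intensities, at 0.17 ± 0.06 in each (adjusted p = 0.0358 at 500 and 0.0332 at 600 mOsm), and its difference between them was -0.00 (-0.12 to 0.12). These calls were near the threshold: the Ctsl call was lost in 13 of 22 alternatives, and without any 1 library except 500 mOsm replicates 1 and 3 and 600 mOsm replicate 3, with an adjusted p up to 0.145. For Ctsz the 500 mOsm call was lost in 7 alternatives, among them those without control replicate 1 or 3, 500 mOsm replicate 1 or 2 or 600 mOsm replicate 1 (adjusted p up to 0.170). Its 600 mOsm call was lost in 9, among them those without control replicate 1 or 3 or 600 mOsm replicate 1 or 3 (adjusted p up to 0.129), and its fold change was 0.08 with GC content and length corrected. Exons of Ctsl share 1742 of their 6489 bases with Gm47123 on the other strand and 395 with the pseudogene Gm49230 on the same strand, genes not analysed here. Transcripts of Ctsl also hold repeats close to those of many other genes, such as a run of 169 bases at 96.5% identity to Ankfy1, so part of its count is uncertain.

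**Figure D3:**
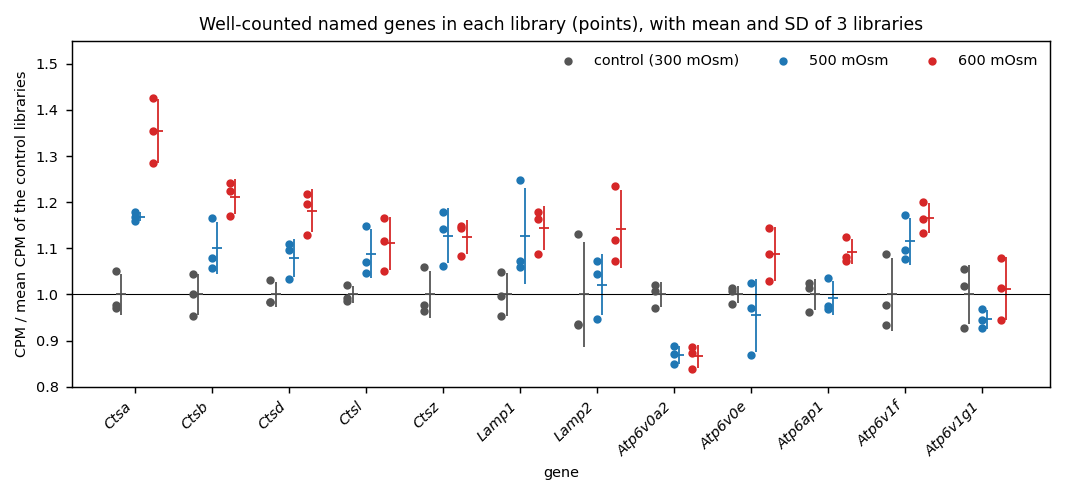
CPM of the named genes with an average log2 CPM above 3, divided by the mean of the control libraries, in each library (points), with the mean and SD of 3 libraries (dash and bar). Ctsa, Ctsb and Ctsd climb from control through 500 to 600 mOsm, Ctsl, Ctsz and Lamp1 lie at like heights at both intensities, and Atp6v0a2 lies below the controls in all 6 treated libraries.

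Ctsh and Ctsw, the cysteine proteases cathepsin H and cathepsin W, the latter best known from cytotoxic lymphocytes, were weakly counted and were called at 500 mOsm against control. Ctsh (ENSMUSG00000032359, chr9:90054152-90076089) had 16, 26 and 23 counts in the controls, 44, 44 and 43 at 500 mOsm and 25, 27 and 37 at 600 mOsm. All 500 mOsm libraries, at 1.64 CPM or more, lay above the other 6, whose highest was 1.43 CPM. Ctsh rose 1.85-fold at 500 mOsm (0.89 ± 0.21, adjusted p = 0.00695), a call kept in all 22 alternatives with a fold change down to 0.28 on the log2(FPKM + 1) scale, and at 600 mOsm stood at 0.43 (-0.06 to 0.91). The difference between the intensities was -0.46 (-0.90 to -0.02, adjusted p = 0.108) and was not called.

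Ctsw (ENSMUSG00000024910, chr19:5465240-5468498) had 18, 25 and 22 counts, then 37, 53 and 29, then 26, 32 and 29. On the CPM scale its treated libraries, at 1.09 to 2.00 CPM, all lay above the controls, the highest of which was 1.02 CPM. Its call at 500 mOsm (0.75 ± 0.25, adjusted p = 0.0449) was lost in 9 of 22 alternatives. These included leaving out any library except 500 mOsm replicate 3 and 600 mOsm replicate 2, with a fold change of 0.50 and an adjusted p of 0.207 without 500 mOsm replicate 2. The summed epithelial and endothelial markers given above were likewise highest at 500 mOsm, mainly through Cdh1 and Pecam1. Of the tested markers, 1 of 2 epithelial and 2 of 3 endothelial genes were called higher there, while Cdh5 stood at 0.05 and was not called. The part of these markers in the rises of Ctsh and Ctsw was not tested. The remaining tested cathepsins were not called: Ctsc, the dipeptidase that activates serine proteases of immune cells, at 0.10 (-0.15 to 0.34) at 600 mOsm, Ctso at 0.05 (-0.65 to 0.76), and Ctsg at 1.25 (0.18 to 2.31). Ctsg, a protease of neutrophil granules, had 11, 9 and 11 counts in the controls, 11, 11 and 32 at 500 mOsm and 38, 23 and 14 at 600 mOsm.

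Lamp1 (ENSMUSG00000031447, chr8:13159135-13175338) had 532, 484 and 506 CPM in the controls, 537, 545 and 633 CPM at 500 mOsm and 589.9, 598 and 552 CPM at 600 mOsm. The treated groups overlapped each other and lay above the controls, with 500 mOsm replicate 3 the highest of all. Lamp1 was called at 600 mOsm (0.19 ± 0.06, adjusted p = 0.0341) and not at 500 mOsm (0.17, interval 0.03 to 0.31, adjusted p = 0.0651), and the difference between the intensities was 0.02 (-0.12 to 0.16). Exons of Lamp1 share 249 bases with Grtp1 on the other strand, a gene with 506 counts beside 121851. The 600 mOsm call was lost in 10 of 22 alternatives, including those without control replicate 2 or 3 or 600 mOsm replicate 1 or 2, with an adjusted p up to 0.120. Lamp2 (ENSMUSG00000016534, chrX:38401357-38456454), the form that also serves in chaperone-mediated autophagy, had 80.0, 66.0 and 66.2 CPM, then 73.8, 66.9 and 75.8 CPM, then 75.8, 87.3 and 79.1 CPM. Control replicate 1 stood above the other controls and overlapped the 600 mOsm group. Lamp2 was not called in any comparison by edgeR, at 0.19 (0.01 to 0.37, adjusted p = 0.0907) at 600 mOsm, but without control replicate 1 its fold change there was 0.29 (adjusted p = 0.0143).

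The V-ATPase genes showed no common direction. Of 18 tested, edgeR called 0 higher and 1 lower at 500 mOsm, 1 higher and 2 lower at 600 mOsm, and 2 higher and 0 lower between the intensities. The shares called higher were 0%, 5.56% and 11.1%, beside 13.2%, 15.1% and 11.9% of all genes, and the shares called lower 5.56%, 11.1% and 0%, beside 14.8%, 20.0% and 17.2%. At an unadjusted p under 0.05, 1 was higher at 500 mOsm and 0 were lower between the intensities, while DESeq2 called 0 in both and limma 1 and 0. The median log2 fold change was -0.02, 0.06 and 0.03 in the 3 comparisons. With 1 library left out, the 1 higher gene at 600 mOsm ranged from 0 to 3 and the 2 higher genes between the intensities from 0 to 3. Summed over the 25 genes, the V-ATPase came to 699 ± 11.9 FPKM in the controls, 693 ± 25.3 FPKM at 500 mOsm and 714 ± 8.14 FPKM at 600 mOsm, and the groups overlapped. For most subunits the fits bounded the difference between these groups of libraries, gene by gene and not jointly. For the 14 well-counted genes not called at 600 mOsm against control, all 95% intervals lay within 0.817-fold and 1.21-fold of control, and for the 15 not called at 500 mOsm within 0.818-fold and 1.23-fold.

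In the V0 sector, Atp6v0a2 (ENSMUSG00000038023, chr5:124629067-124722144), the a subunit isoform known from the Golgi and early endosomes, was lower at both intensities. The controls read 83.2, 82.2 and 79.1 CPM, the 500 mOsm libraries 70.9, 69.3 and 72.3 CPM, and the 600 mOsm libraries 72.2, 71.2 and 68.3 CPM. All 6 treated libraries lay below all controls and the treated groups overlapped. Atp6v0a2 fell by 0.20 ± 0.05 on the log2 scale at 500 mOsm (adjusted p = 0.00725) and by 0.21 ± 0.05 at 600 mOsm (adjusted p = 0.00576), or to 0.869 and 0.866 of control. The difference between the intensities was -0.01 (-0.11 to 0.10). Both calls were kept in 21 of 22 alternatives, with each library left out in turn among them, and were lost under a length correction combined with the replicate block (adjusted p = 0.0926 and 0.0716). Exons of Atp6v0a2 share 663 of their 6726 bases with 4930404A12Rik on the other strand, a gene not analysed here.

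Atp6v0e (ENSMUSG00000015575, chr17:26676396-26699644), a small subunit of the membrane sector, had 105, 105 and 102 CPM in the controls, 90.2, 101 and 106 CPM at 500 mOsm and 107, 113 and 119 CPM at 600 mOsm. The 600 mOsm group lay just above the other 6 libraries, and 500 mOsm replicate 1 lay below all others. It was called between 600 and 500 mOsm (0.19 ± 0.06, adjusted p = 0.0426), and stood at -0.07 (-0.20 to 0.07) and 0.12 (-0.02 to 0.26) against control. The call was lost in 14 of 22 alternatives, including those without control replicate 2 or 3, 500 mOsm replicate 1 or 2 or 600 mOsm replicate 2 or 3; without 500 mOsm replicate 1 the fold change was 0.12 (adjusted p = 0.167). The other tested V0 genes, Atp6v0c and Atp6v0b of the proton-carrying ring, Atp6v0d1, Atp6v0a1 and Atp6v0a4, were not called in any comparison. Atp6v0d1 stood at 0.15 (0.03 to 0.28, adjusted p = 0.0598) at 600 mOsm and at -0.01 (-0.13 to 0.12) at 500 mOsm, its 600 mOsm libraries above all others. Atp6v0c shares 465 bases at 99.8% identity with the processed pseudogene Gm15487, to which 15790 counts were assigned beside 44611 for Atp6v0c, so the split between them is uncertain.

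In the V1 sector, Atp6v1f (ENSMUSG00000004285, chr6:29467718-29470512), a subunit of the central stalk, had 54.6, 63.5 and 57.1 CPM in the controls, 64.0, 68.5 and 62.9 CPM at 500 mOsm and 70.1, 66.2 and 68.0 CPM at 600 mOsm. The 600 mOsm libraries lay above all controls, while control replicate 2 overlapped the 500 mOsm group. Atp6v1f rose at 600 mOsm (0.22 ± 0.06, adjusted p = 0.0178) and was at 0.16 (0.02 to 0.30) at 500 mOsm. The call was lost in 7 of 22 alternatives: without control replicate 1 (adjusted p = 0.0786), control replicate 3 (0.0650) or 600 mOsm replicate 1 (0.0697), and under the 4 corrections for length or GC content, where the fold change was 0.09 to 0.10.

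Atp6v1g1 (ENSMUSG00000039105, chr4:63544772-63550750), the peripheral stalk G subunit and the highest V-ATPase gene per length, had 106, 103 and 93.7 CPM, then 93.6, 95.3 and 97.8 CPM, then 109, 95.3 and 102 CPM. Its groups overlapped, and it was not called, at -0.08 (-0.21 to 0.06) at 500 mOsm and 0.02 (-0.12 to 0.15) at 600 mOsm. Atp6v1g2 (ENSMUSG00000024403, chr17:35233660-35238767), the minor G isoform, had 45, 68 and 60 counts in the controls, 47, 53 and 69 at 500 mOsm and 39, 34 and 49 at 600 mOsm. At 1.52 to 1.89 CPM its 600 mOsm libraries lay below the other 6. It was called lower at 600 mOsm (-0.53 ± 0.19, adjusted p = 0.0497), a call lost in 13 of 22 alternatives, including those without any 1 library except control replicate 1 and 500 mOsm replicate 3. Without control replicate 2 its fold change was -0.42 (adjusted p = 0.167). Its exons share 144 bases with Nfkbil1 on the other strand, a gene with 1558 counts beside 464. The other V1 genes tested, Atp6v1a and Atp6v1b2 of the ATP-hydrolysing head, Atp6v1c1, Atp6v1d, Atp6v1e1 and Atp6v1h were not called in any comparison, and Atp6v1e1 came nearest at 500 mOsm, at -0.16 (-0.29 to -0.03, adjusted p = 0.0611).

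Among the accessory proteins, Atp6ap1 (ENSMUSG00000019087, chrX:74297097-74304721), which guides assembly of the membrane sector, had 153, 154 and 145 CPM in the controls, 146, 147 and 156 CPM at 500 mOsm and 169, 163 and 162 CPM at 600 mOsm. The 600 mOsm group lay above the other 6 libraries, which overlapped. It was called between 600 and 500 mOsm (0.14 ± 0.05, adjusted p = 0.0448), not at 600 mOsm against control (0.13, interval 0.02 to 0.23, adjusted p = 0.0548), and stood at -0.01 (-0.12 to 0.09) at 500 mOsm. The call was lost in 19 of 22 alternatives, including the removal of any 1 library except 500 mOsm replicate 3, with an adjusted p up to 0.149 without 600 mOsm replicate 1. Atp6ap2, the prorenin receptor, was at 0.06 (-0.11 to 0.23) at 600 mOsm and was not called.

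The 15 genes that did not pass the filter had between 0 and 15 counts in any library. Of these, 5 had no count at all: Atp6ap1l and the placental cathepsins Ctsj, Ctsm, Ctsq and Ctsr, which lie together on chromosome 13 between 61000278 and 61541839. The others were Atp6v0d2, Atp6v0e2, Atp6v1b1, Atp6v1c2, Atp6v1e2, Atp6v1g3, Ctse, Ctsf, Ctsk and Ctss, several of them known from osteoclasts, kidney, stomach, testis or antigen-presenting cells. Atp6v1e2, the E subunit isoform known from testis, had 0, 1 and 0 counts in the controls, 7, 10 and 7 at 500 mOsm and 2, 2 and 3 at 600 mOsm. Its 500 mOsm libraries were thus above all others, at a level too low for the test. In the other untested genes no group lay apart from both others.

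Other lysosomal genes were followed in lists of the same pathway, 100 genes of which 89 were tested. Over all of them 8 were called higher and 7 lower at 500 mOsm, 26 and 6 at 600 mOsm, and 18 and 7 between the intensities, with median log2 fold changes of 0.04, 0.15 and 0.08. The shares called higher were 8.99%, 29.2% and 20.2%, beside 13.2%, 15.1% and 11.9% of all genes, and the shares called lower 7.87%, 6.74% and 7.87%, beside 14.8%, 20.0% and 17.2%. Of 37 other lysosomal hydrolases and activators, 3 (8.11%) were higher and 1 lower at 500 mOsm, 15 (40.5%) and 1 at 600 mOsm, and 10 (27.0%) and 2 between the intensities. They thus held most of the higher calls of the lists at 600 mOsm and between the intensities, but not at 500 mOsm. Psap, which encodes the precursor of the saposin activators, rose by 0.36 at 600 mOsm (adjusted p = 5.08e-05), from 723 ± 22.8 to 927 ± 22.7 CPM. Gaa, the acid glucosidase that degrades glycogen, rose by 0.37 there (adjusted p = 0.000436). Pla2g15, a lysosomal phospholipase, Man2b1, the acid mannosidase, and Hyal2, a hyaluronidase, were the hydrolase genes with the smallest p that were higher at 600 than at 500 mOsm, by 0.49, 0.26 and 0.38. Of these, Hyal2 was the 1 hydrolase gene called lower at 500 mOsm (-0.27) and was not called at 600 mOsm against control (0.11). Manba, the beta-mannosidase, was called higher at both intensities but rested on 5 counts over the 3 controls, 145 at 500 mOsm and 46 at 600 mOsm.

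**Figure D4:**
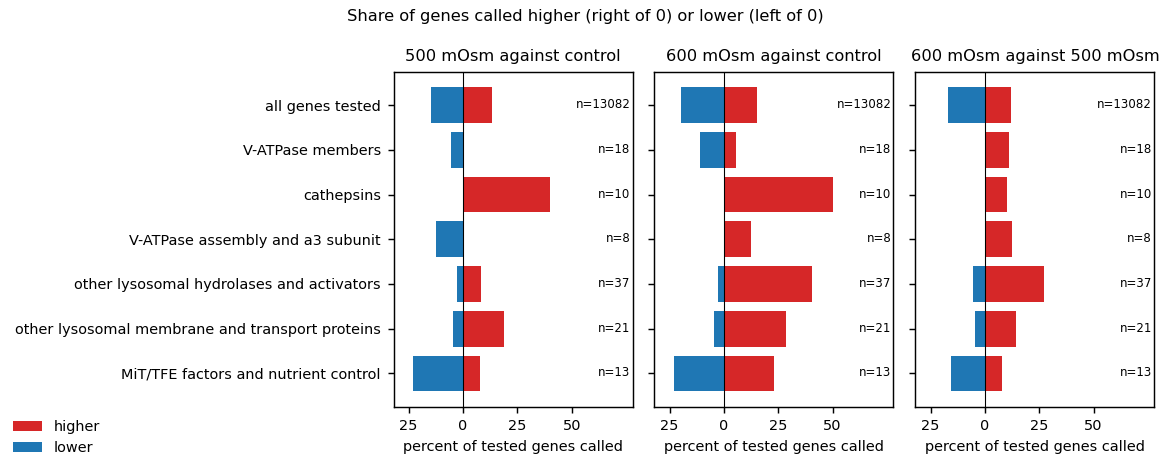
Percent of the tested genes of each list called higher (red, right of 0) or lower (blue, left of 0) in each comparison, with the number tested at the right. At 600 mOsm against control, cathepsins (5 of 10) and other hydrolases (15 of 37) have the longest red bars of the 7 sets plotted, while V-ATPase genes (1 of 18) fall short of the 15.1% of all genes.

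Of 21 other membrane and transport proteins, 4 (19.0%) were higher and 1 lower at 500 mOsm, 6 (28.6%) and 1 at 600 mOsm, and 3 (14.3%) and 1 between the intensities, beside 13.2%, 15.1% and 11.9% of all genes called higher. Mfsd8 and Laptm4b, both proteins of the lysosomal membrane, had the smallest p among those that rose at 500 mOsm, at 0.83 and 0.24. Of 8 genes for V-ATPase assembly and the a3 subunit, 1 was lower at 500 mOsm, 1 was higher at 600 mOsm, and 1, Tcirg1, was higher at 600 than at 500 mOsm (0.19, adjusted p = 0.0209). Of 6 genes that sort hydrolases by mannose 6-phosphate, 1 was lower at each intensity, and 1 was higher and 2 were lower between them. Gnptab, which builds the mannose 6-phosphate tag, was lower at 600 than at 500 mOsm by 0.43 (adjusted p = 0.00512). Of 4 tested cathepsin inhibitors, 1 was higher at 600 mOsm, and 2 were higher at 600 than at 500 mOsm. A single call is 12.5% of the assembly list and 16.7% of the sorting list, beside 11.9% to 20.0% of all genes called in one direction, and the inhibitor list is too short for a share.

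The MiT/TFE factors and the genes that tie them to nutrient supply moved in both directions, with 1 higher and 3 lower at 500 mOsm, 3 and 3 at 600 mOsm, and 1 and 2 between the intensities, of 13 tested. The shares higher were 7.69%, 23.1% and 7.69%, beside 13.2%, 15.1% and 11.9% of all genes, and the shares lower 23.1%, 23.1% and 15.4%, beside 14.8%, 20.0% and 17.2%. Tfe3, a MiT/TFE factor, averaged 153, 179 and 170.1 CPM and was called higher at 500 mOsm (0.23, adjusted p = 0.0109), while Tfeb was not called. The 3 genes called higher at 600 mOsm were Lamtor1, Lamtor2 and Lamtor4, at 0.14, 0.19 and 0.27. They encode parts of the Ragulator complex that holds mTORC1 regulators at the lysosome. Lamtor3 and Lamtor5, of the same complex, were not called there, at -0.07 and 0.15. The Lamtor genes and Tfe3 were named after their values were seen. Mitf, a MiT/TFE factor, fell from 4.65 ± 0.551 CPM in the controls to 2.45 ± 0.162 CPM at 500 mOsm and 1.57 ± 0.164 CPM at 600 mOsm (adjusted p = 0.000337 and 8.76e-06). Fnip2, a partner of folliculin, fell from 30.1 ± 1.67 to 15.8 ± 0.865 and 15.4 ± 1.05 CPM (adjusted p = 2.44e-06 and 2.21e-06). Flcn, folliculin itself, was lower at 500 mOsm by 0.40 (adjusted p = 0.000759) and was the 1 gene higher at 600 than at 500 mOsm, by 0.31 (adjusted p = 0.00503). Rragc, a GTPase that binds mTORC1 and TFEB at the lysosome, had 52.5 ± 3.08, 51.4 ± 1.52 and 30.8 ± 2.48 CPM and fell at 600 mOsm against both other groups (adjusted p = 4.97e-06 and 7.92e-06).

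Promoters were searched for the E-box CACGTG and for TCACGTGA, the core of the CLEAR element. Both read the same on either strand, and every TCACGTGA holds a CACGTG. RefSeq windows (GRCm38.p6) from 250 bases before to 50 bases after a gene's start were found for 34 of the 45 genes, Ctsb, Ctsh, Ctsw, Atp6v0a2 and Atp6v1g1 not among them. CACGTG stood in the windows of 9 of the 34 (26.5%) and of 8.09% of all genes with a window, and TCACGTGA in those of 5 (14.7%) and of 1.12% of all. Of the 22 tested genes with a window 8 (36.4%) held CACGTG and 5 (22.7%) TCACGTGA, and of the 12 untested 1 (8.33%) and 0. The share among all genes that passed the filter was not counted. The 9 were Ctsa, Ctsd, Ctsl, Ctsf, Lamp1, Atp6v0b, Atp6v0d1, Atp6v0e and Atp6v1a, all but Ctsf tested, and TCACGTGA was found in Ctsa, Ctsd, Atp6v0d1, Atp6v0e and Atp6v1a. Stretches before the start are printed for 3 genes that rose at 600 mOsm and for Atp6v1a, which was not called and stood at -0.00 (-0.17 to 0.17) there, with the motif in capitals and in the direction of the gene:
Ctsa: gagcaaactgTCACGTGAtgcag
Ctsd: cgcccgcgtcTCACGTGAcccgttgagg
Lamp1: gggcaagatatCACGTGgtccagcgccc
Atp6v1a: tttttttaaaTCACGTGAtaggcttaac

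The stretch of Ctsa lies at chr2:164833750-164833772 on the plus strand and that of Ctsd at chr7:142387909-142387936 on the minus strand, both overlapping an annotated exon in GENCODE vM21. That of Lamp1 lies at chr8:13159089-13159116 on the plus strand, outside the gene, and is the first of 4 CACGTG before its start in RefSeq. The stretch of Atp6v1a at chr16:44139374-44139401 on the minus strand lies within the gene and outside its exons. Genes with these letters were thus found both among those called higher and among those not called, and a match is a description of the window, not a binding site.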

How the data were processed

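RNA-seq of 9 MEF libraries (3 per group) was analysed from 1 deposited table on mm10. The authors deposited read counts per gene, not normalized, and FPKM made from these counts with the listed gene length and the column total. The submitters' processing notes name CASAVA 1.8 and STAR; the counting tool, its strand setting and the annotation are not given in the sources used here. The authors' fold changes, p-values and adjusted p-values were not used.

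Counts were scaled by TMM and filtered by filterByExpr in edgeR 4.0.16 (R 4.3.3), leaving 13082 genes. All 9 libraries entered 1 quasi-likelihood fit (common biological coefficient of variation 0.0756), with Benjamini-Hochberg adjustment over all genes and a threshold of 0.05. Values are counts, TMM-scaled CPM or FPKM. The test was checked on simulated data in which the changed genes had log2 changes of 1 or more, up or down. Smaller changes, such as all those called here, were not simulated, so the check does not cover them. Full values were given for genes called in at least 1 comparison, both LAMP genes and the highest cathepsin and V-ATPase gene. The genes, lists and rules were chosen with earlier results of these data known. Genes with a pattern like the called V-ATPase genes were not sought, since under 5 were called in 1 direction. Shared sequence was searched with blastn 2.17.0. Alternatives were DESeq2 1.42.0, limma 3.58.1 on log2 FPKM, other scalings, filters and thresholds, corrections, the replicate block and each library left out.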

Additional observations from a re-analysis of the deposited data

How the results depend on the processing

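Depth limited the weakly counted genes most, since Ctsh, Ctsw, Ctsg and Atp6v1g2 had under 70 counts in every library, and intervals cover the spread between libraries of 1 experiment. The 17 called fold changes kept their direction in every alternative run. Over all pairs of a called fold change and an alternative, the call was kept 168 times and lost 53 times with all libraries, and kept 103 times and lost 50 times with 1 library left out. Uncalled fold changes of the named genes became called 29 and 6 times. The corrections for GC content and length together, alone and with the block, were chosen after seeing the data. The cause of the differences was not tested.

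Counts of called genes moved as follows. Genes higher at 500 mOsm, 4 in all, were 7 with a length correction, 10 with GC content and length corrected and 8 with the block added, 2 at an adjusted p under 0.01 and 2 to 4 with 1 library left out. The 1 lower gene became 0 with a length correction and replicate block, 2 with GC content and length corrected, and 1 to 2 with 1 library left out. Genes higher at 600 mOsm, 7 in all, were 4 with the replicate block, 3 at an adjusted p under 0.01 and 3 to 10 with 1 library left out. The 2 lower genes were 1 with RLE factors, no filter, DESeq2, only the 2 groups compared, the replicate block or an adjusted p under 0.01, 0 with a length correction and replicate block, and 1 to 2 with 1 library left out. The 3 genes higher at 600 than at 500 mOsm were 1 with library size alone, at least 10 counts in every library, only the 2 groups compared, the replicate block, limma at either pseudocount or an adjusted p under 0.01, 5 with GC content and length corrected, and 1 to 5 with 1 library left out. The 0 lower genes became 1 with limma on log2(FPKM + 1). Requiring a log2 change of 1 or more, up or down, beside the adjusted p left 0 in every comparison.

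Values that changed sign were all uncalled and close to 0. Atp6ap1 at 500 mOsm was 0.0018 with at least 10 counts, 0.020 with a length correction, alone or with the replicate block, 0.030 with GC content and length corrected, alone or with the block, and -0.043 to 0.0062 with 1 library left out. Between 600 and 500 mOsm, Atp6v0a2 was 0.015 with no filter, 0.0075 with GC content and length corrected, 0.0074 with the block added, and -0.019 to 0.019 with 1 library left out. Atp6v1f was -0.049 and -0.048 with a length correction without and with the block, and -0.043 and -0.042 with GC content added. Ctsl was -0.020 with a length correction without or with the block, -0.0054 and -0.0048 with GC content added, and -0.0040 to 0.069 with 1 library left out. Ctsz was 0.018 with no filter, 4.26e-06 by DESeq2 and -0.045 to 0.039 with 1 library left out. Lamp1 was -0.016 and -0.014 with a length correction without and with the block and -0.022 to 0.10 with 1 library left out. At 600 mOsm against control Atp6v1g1 was -0.0016 with library size alone, -0.0017 with limma at either pseudocount, -0.073 with a length correction without or with the block, -0.030 with GC content and length corrected, without or with the block, and -0.034 to 0.066 with 1 library left out. Lamp2 at 500 mOsm was -0.020 to 0.12 with 1 library left out.

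The replicate numbers did not consistently pair the libraries: deviations from the group means of same-numbered libraries correlated at -0.663 to 0.583 (mean -0.234, 9 pairs, 9088 genes). The mean of 0.119 for other numbers follows from this, as deviations within a group cancel out. Some libraries went together whatever their numbers. Control 2, 500 mOsm 2 and 600 mOsm 3 correlated pairwise at 0.583, 0.571 and 0.533. Control 3, 500 mOsm 1 and 600 mOsm 2 did so at 0.575, 0.398 and 0.434. Control 1, 500 mOsm 3 and 600 mOsm 1 were at 0.524, 0.186 and 0.173. No fit modelled these sets, and what their libraries shared was not tested. The block changed the calls at 600 mOsm most, from 7 to 4 higher, and a call lost under it says nothing of a weaker effect.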
